A study of Mus musculus with 6 samples.

Results

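The immunity-related GTPases that interferon gamma switches on were followed in regenerating mouse muscle: Irgm1, Irgm2, Igtp, Iigp1, Ifi47, Tgtp1 and Tgtp2. The genes were chosen by symbol, with earlier results of these data known. All 7 were found among the 52369 genes measured and among the 14788 genes tested. RNA was sequenced from tibialis anterior muscle of C57BL/6 mice in 6 libraries, 3 with Linc-smad7 gain of function, called L7, and 3 labelled control. In both groups the muscle was injured at 5 weeks of age with cardiotoxin (10 µM, 50 µl), which comes from snake venom and kills fibres so that the muscle regenerates. Both groups then received repeated injections of 6.25 µg of pcDNA3.1 plasmid with an in vivo transfection reagent, the last on day 4, and the muscle was taken on day 7, at a labelled age of 6 weeks. Linc-smad7 is a long non-coding RNA, and per the series title the study asks about its part in myoblast differentiation and muscle regeneration. Plasmid was injected into whole muscle, so the libraries hold RNA of fibres, infiltrating immune cells and every other cell of the tissue, and the labels do not say which cells took up plasmid. In such bulk samples fewer cells of a type and less RNA per cell cannot be told apart. The labels do not say how many animals a group holds, so p-values measure the spread between these libraries.

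Immunity-related GTPases are GTP-binding proteins of cell-autonomous defence in mice. Interferon gamma, a cytokine made chiefly by T and natural killer lymphocytes, binds its receptor, the kinases JAK1 and JAK2 pass the signal on, and transcription factors that include the induced factor IRF1 turn the GTPase genes on. The family has a regulator arm and an effector arm, named GMS and GKS after the letters of a GTP-binding motif. The GMS proteins (Irgm1, Irgm2 and Igtp, the last also called Irgm3) sit on the membranes of the cell's own organelles and hold the GKS proteins inactive there. The GKS proteins (Iigp1 or Irga6, Ifi47 or Irgd, and Tgtp1 and Tgtp2, together called Irgb6) load onto the vacuoles of parasites such as Toxoplasma gondii and break them.

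All but Iigp1 lie in a pair of groups on chromosome 11 of mm10. One group, chr11:48861968-49096974, spans 235 kb and holds 4 of them: Irgm1 (ENSMUSG00000046879, chr11:48861968-48871683, minus strand), Tgtp1 (ENSMUSG00000078922, chr11:48985327-48994172, minus strand), Tgtp2 (ENSMUSG00000078921, chr11:49057194-49064206, minus strand) and Ifi47 (ENSMUSG00000078920, chr11:49076587-49096974, plus strand). The other, chr11:58199556-58222782, spans 23 kb and holds Igtp (ENSMUSG00000078853, chr11:58199556-58207591) and Irgm2 (ENSMUSG00000069874, chr11:58199618-58222782), both on the plus strand. The coding sequences of Tgtp1 and Tgtp2 were 99.7% identical, with 1241 of 1245 bases the same. The other 20 pairs of the genes had 57.8% to 73.2% identity over aligned bases, gaps left out, the highest between Irgm2 and Igtp. Of the stretches of 100 bases in the exons of Tgtp1, 73.1% also occurred in another gene, and of those of Tgtp2, 76.8%, against 5.16% for Igtp, 3.01% for Irgm2, 0.842% for Ifi47 and none for Irgm1 and Iigp1. How reads were divided between Tgtp1 and Tgtp2, and whether reads that fit both were counted, is therefore uncertain. The annotated span of Irgm2 runs over all but the first bases of Igtp on the same strand, and those of Ifi47, Tgtp1 and Tgtp2 lie within that of Olfr56.

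Promoter sequences, from 250 bases before to 50 bases after the gene start, came from RefSeq (GRCm38.p6, the sequence of mm10), and those of 6 genes, all but Iigp1, were used here. They were searched on both strands for the core of the interferon-stimulated response element, to which IRF factors bind (GAAANNGAAA), and for the core of the gamma-activated site (TTCNNNGAA), named for the response to interferon gamma. A stretch of 100 bases upstream of the start is shown for the 5 genes with a match. The levels of all the chosen genes moved together between libraries, those of Ifi47 and Iigp1 included. Whether the cores play a part in these levels was not tested. The stretches read 5′ to 3′ on the strand of the gene, and capitals mark the bases matched by either core.
Igtp, chr11:58199456-58199555, plus strand: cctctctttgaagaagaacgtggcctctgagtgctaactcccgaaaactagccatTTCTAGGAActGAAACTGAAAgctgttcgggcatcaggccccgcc
Irgm2, chr11:58214868-58214967, plus strand: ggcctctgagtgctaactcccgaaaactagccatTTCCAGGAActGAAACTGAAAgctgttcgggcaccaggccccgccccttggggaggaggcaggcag
Tgtp1, chr11:48992269-48992368, minus strand: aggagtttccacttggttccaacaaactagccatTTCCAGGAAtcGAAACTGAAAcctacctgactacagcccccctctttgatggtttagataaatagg
Tgtp2, chr11:49064228-49064327, minus strand: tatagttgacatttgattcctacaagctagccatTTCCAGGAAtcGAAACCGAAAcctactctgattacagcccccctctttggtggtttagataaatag
Irgm1, chr11:48871421-48871520, minus strand: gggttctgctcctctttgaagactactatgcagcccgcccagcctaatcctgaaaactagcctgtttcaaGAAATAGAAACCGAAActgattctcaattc
In Igtp, Irgm2, Tgtp1 and Tgtp2 the gamma-activated core came first and the response element core started 11 bases after it, so the pair had the same spacing in all 4 promoters. The response element core began 34 bases before the start of Igtp, 64 before that of Irgm2, 77 before that of Tgtp1 and 70 before that of Tgtp2. Irgm1 held 2 overlapping response element cores, at 30 and 24 bases before its start, and no gamma-activated core. The window of Ifi47 held neither core. Of the annotated transcripts of Ifi47, 1 of 5 began within 100 bases of the start used for its window. The same count was 1 of 3 for Tgtp1, 2 of 3 for Irgm1, 2 of 3 for Irgm2, 3 of 3 for Igtp and 2 of 2 for Tgtp2. Among the 32851 RefSeq promoters of the same length that were searched, 3.44% held the response element core, 8.3% the gamma-activated core, and 36 (0.11%) both with starts within 15 bases of each other. When the whole windows were aligned and gaps left out, those of Irgm2 and Igtp were 92.1% identical (244 of 265 aligned bases). Those of Tgtp1 and Tgtp2 were 80.5% identical (219 of 272 aligned bases).

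The libraries held 20725423 to 22179456 reads in genes in L7 muscle and 19420012 to 24663153 in control muscle. L7 replicate 3 stood apart: its correlation over genes with the other libraries was 0.92 to 0.951, against 0.979 to 0.989 among the others. Reads of 4 Y-linked genes were present in L7 replicate 1 and control replicates 1 and 3, with 3185 to 4184 reads, and the other 3 libraries had at most 2 such reads. Xist, which is transcribed from the inactivated X of female cells, was at 0.101 FPKM in L7 replicate 1 and at 0.0536 and 0.0325 FPKM in control replicates 1 and 3, against 40.7 to 92.0 FPKM in the other 3 libraries. Each group therefore holds RNA of more than 1 animal and of both sexes, and by these reads 1 of 3 L7 and 2 of 3 control libraries are male. The sexes are thus unbalanced between the groups. Of 12 adult fibre genes, 12 were higher in L7 muscle on the mean, and their summed level ran from 33780 to 100800 FPKM in L7 muscle, highest in replicate 3, and from 22340 to 31360 FPKM in control muscle. Levels are given in FPKM, fragments relative to gene length and to the depth of the library. The Linc-smad7 transcript itself was not analysed here.

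The 3 regulators were on average lower in L7 than in control muscle, but no gene of the whole table passed the adjusted test. Irgm1, whose protein acts on Golgi, lysosome and mitochondrial membranes, was at 69.1, 106 and 69.3 FPKM in the L7 libraries 1 to 3, against 188, 117 and 187 FPKM in the control libraries 1 to 3. All L7 libraries lay below all control libraries, and replicate 2 of each group stood nearest to the other group. The means were 81.5 ± 21.3 FPKM in L7 and 164 ± 40.4 FPKM in control muscle (SD, n = 3 each), a log2 difference of -0.998 (SE 0.26) on the log2(FPKM + 1) scale used throughout, which understates the change of low genes. Its limma p was 0.0053 unadjusted and 0.58 adjusted over all genes.

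Irgm2, a regulator found at the Golgi, was at 59.8, 116 and 71.9 FPKM in L7 muscle, against 149, 109.5 and 171 FPKM in control muscle. The groups overlapped, because L7 replicate 2 lay just above control replicate 2. Its log2 difference was -0.82 (SE 0.28), the smallest of the 7, with a limma p of 0.0206 unadjusted and 0.58 adjusted. Igtp, a regulator on the endoplasmic reticulum and lipid droplets, was at 75.4, 162 and 99.96 FPKM in L7 muscle, against 274, 149 and 316 FPKM in control muscle. Again only replicate 2 crossed, with the L7 library above the control library. The means were 112 ± 44.6 FPKM in L7 and 246 ± 86.6 FPKM in control muscle (SD, n = 3 each), and the log2 difference was -1.13 (SE 0.36), with a limma p of 0.0162 unadjusted and 0.58 adjusted.

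Among the effectors, Iigp1 was the most abundant of the 7 and the most variable. It lies apart from the others on the plus strand of chromosome 18 (ENSMUSG00000054072, chr18:60376027-60392634, mm10). Iigp1, whose protein Irga6 gathers on the vacuole of Toxoplasma in mouse cells, was at 64.8, 199 and 124 FPKM in L7 muscle, against 375, 169 and 352 FPKM in control muscle. L7 replicate 2 lay above control replicate 2, and the highest library (control replicate 1) had 5.79 times the level of the lowest (L7 replicate 1). The means were 129 ± 67.0 FPKM in L7 and 299 ± 113 FPKM in control muscle (SD, n = 3 each). The log2 difference was -1.26 with the largest SE of the 7 (0.46), and the limma p was 0.0269 unadjusted and 0.58 adjusted. Without L7 replicate 1 the log2 difference of Iigp1 was -0.84, with an unadjusted limma p of 0.0717. Ifi47, an effector of the same arm, was at 91.1, 105 and 64.5 FPKM in L7 muscle, against 194, 122 and 216 FPKM in control muscle. The groups did not overlap, and the log2 difference was -1.01 (SE 0.27), with a limma p of 0.00682 unadjusted and 0.58 adjusted.

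Tgtp1 and Tgtp2 are the nearly identical copies that make Irgb6, an effector among the first to load onto the Toxoplasma vacuole in mouse cells. They had the lowest FPKM values, which may miss reads that fit both copies, and the largest differences. Tgtp1 was at 9.91, 19.5 and 14.5 FPKM in L7 muscle, against 49.7, 23.3 and 51.8 FPKM in control muscle. Tgtp2 was at 30.1, 61.1 and 34.9 FPKM in L7 muscle, against 125, 65.2 and 121 FPKM in control muscle. For both genes all L7 libraries lay below all control libraries, with replicate 2 of each group closest. The limma p was 0.00472 for Tgtp1, whose log2 difference was -1.41 (SE 0.35), and 0.00601 for Tgtp2, at -1.29 (SE 0.34), both 0.58 adjusted. The ratio of Tgtp2 to Tgtp1 stayed between 2.4 and 3.13 in L7 and between 2.34 and 2.79 in control libraries, though it rests on the uncertain division of reads between the copies. Reads behind the 7 genes ran from 290 (Tgtp1 in L7 replicate 1) to 26324 (Iigp1 in control replicate 3), so counting error is small beside the spread between libraries.

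**Figure D1:**
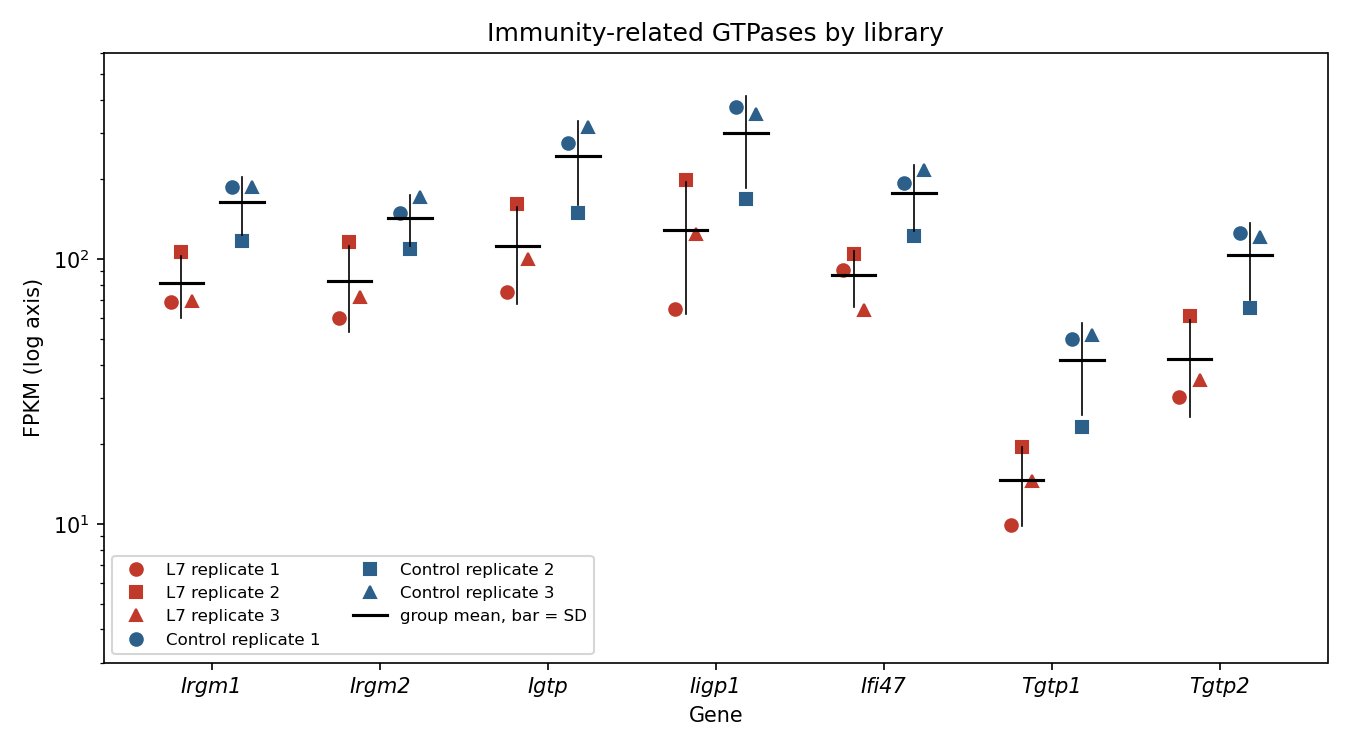
Level of each GTPase gene in every library, in FPKM on a log axis, with L7 libraries in red to the left and control libraries in blue to the right of each gene name; horizontal lines are group means and vertical bars SD (n = 3). Replicate 2 (squares) is the highest library of L7 and the lowest of control for all 7 genes, so the groups meet or overlap there: Irgm1 is at 106 FPKM in L7 and 117 FPKM in control replicate 2.

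Read against the whole table, the members stood among the genes with the lowest L7 levels relative to control, although none passed the adjusted test. By limma, 0 of 14788 genes (0.0%) passed an adjusted p of 0.05, none of the 7 included. The smallest adjusted p of any gene was 0.468. At an unadjusted p under 0.05, limma called 873 genes and limma voom on recovered reads 886. In the direction of lower L7 levels limma called 629 genes, 4.25% of those tested, and 7 of the 7 members. The members were chosen with earlier results of these data known, so this count describes them and is no test of the family. All L7 libraries lay below all control libraries for 2032 genes, 13.7% of those tested, and for 4 of the 7 members (Irgm1, Ifi47, Tgtp1 and Tgtp2). The exact permutation test gave 0.1 for those 4, the smallest two-sided p that 3 libraries against 3 allow, and 0.2 for Irgm2, Igtp and Iigp1. Without L7 replicate 2 or control replicate 2, the libraries that met, the number of members with separate groups was 7. The share of all genes with L7 below control was then 21.3% and 22.0%. Because only these libraries crossed, the count of 7 was fixed in advance and adds no support. Control replicate 2 is also the only control library without Y-linked reads. Without control replicate 1 or control replicate 3 the number at an unadjusted p under 0.05 was 4, and the share of all genes called lower was 1.39% and 2.82%. With median of ratios scaling 495 of 908 unadjusted calls were lower, against 629 of 873 without it.

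The median log2 difference of the members was -1.13, beside -0.15 over all genes tested, a distance of -0.97. Scaling by the median of ratios brought the median of all genes to -0.0020 and left the members at -0.95, and without L7 replicate 3 the medians were -1.08 for the members and -0.032 for all genes. Ranked from the most lowered of the 14788 genes, Tgtp1 was at place 24, Tgtp2 at 39, Iigp1 at 45, Igtp at 73, Ifi47 at 112, Irgm1 at 116 and Irgm2 at 236. The authors' deposited table gave log2 fold changes of L7 over control from -1.32 for Tgtp1 to -0.63 for Irgm2. In the authors' deposited table all 7 had an unadjusted p under 0.05, from 0.00325 for Irgm1 to 0.0355 for Irgm2, where 0.751% of 31690 genes were called lower. Their adjusted p in the authors' deposited table was 1 for each member, while 7 genes (0.0221%) were called lower at an adjusted p under 0.05 there.

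**Figure D2:**
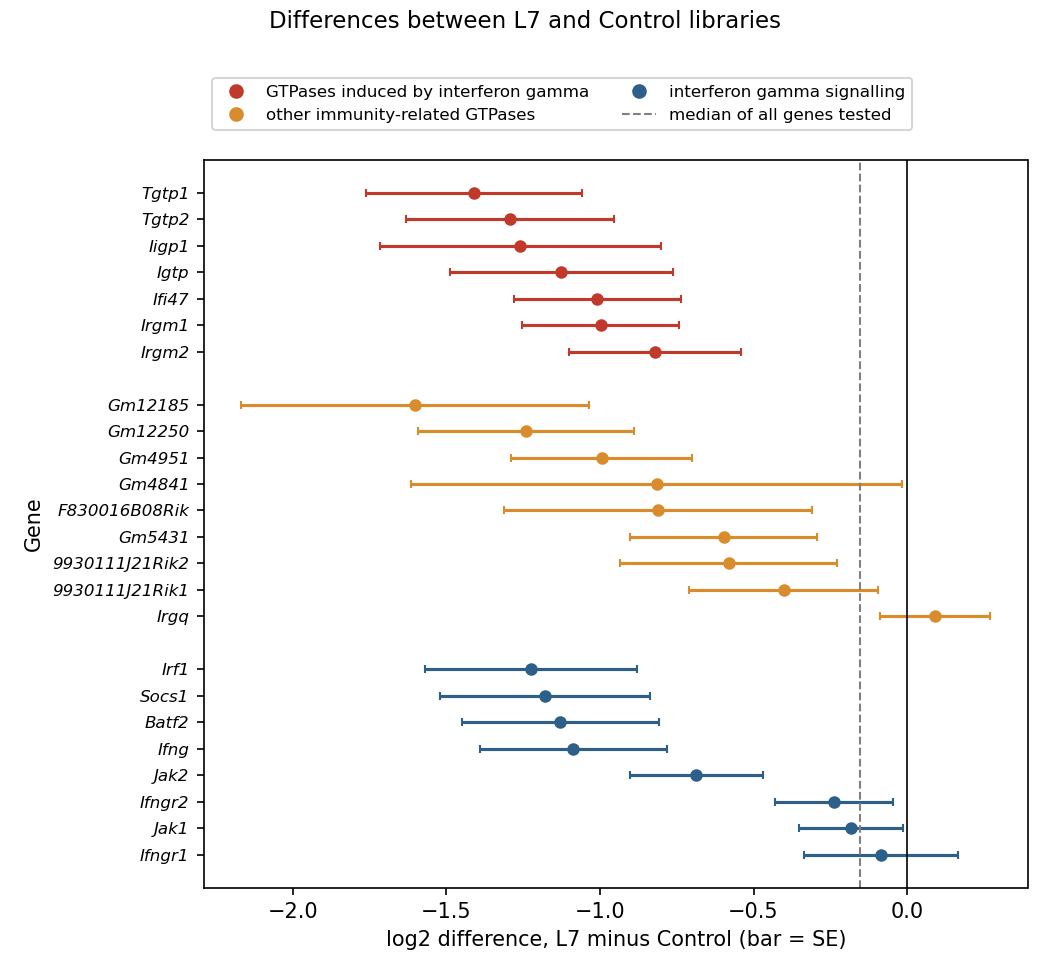
Log2 difference of L7 minus control, on the log2(FPKM + 1) scale, with bars for its SE, for the 7 GTPases (red), other genes of the family (orange) and 8 genes of interferon gamma signalling (blue); the dashed line is the median of all genes tested. The 7 GTPases lie between -1.41 and -0.82, all left of the dashed line at -0.15.

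The members shared 1 profile over the libraries. Their summed level was 400.2, 768 and 479 FPKM in the L7 libraries 1 to 3, against 1355, 755 and 1415 FPKM in the control libraries 1 to 3. On this sum L7 replicate 2 and control replicate 2 stood next to each other between the other libraries, with the L7 library slightly the higher. The sum averaged 549 ± 194 FPKM in L7 and 1175 ± 365 FPKM in control muscle (SD, n = 3 each). The genes took 0.0915%, 0.186% and 0.116% of the reads in genes in L7 muscle, against 0.32%, 0.179% and 0.331% in control muscle. All 7 members lay below the lowest control library in L7 replicates 1 and 3, and 4 of 7 did in L7 replicate 2. Pearson correlations between members over the 6 libraries ran from 0.82 to 0.996 with a median of 0.968 over 21 pairs. With each group's mean taken out they ran from 0.561 to 0.989 with a median of 0.935. These describe 6 libraries, and the genes of a library share its depth and tissue make-up.

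Within the shared profile, L7 replicate 1 had another order of levels. In the other 5 libraries Iigp1 was highest, followed by Igtp, whereas in L7 replicate 1 Ifi47 led, followed by Igtp, Irgm1 and Iigp1. Ifi47 made up 22.8% of the summed FPKM of the members in L7 replicate 1, against 13.4% to 16.2% in the other libraries, and Iigp1 made up 16.2%, against 22.3% to 27.7%. The ratio of the effector Iigp1 to the regulator Irgm1 was 0.938, 1.87 and 1.79 in L7 muscle and 2.00, 1.44 and 1.89 in control muscle. Tgtp2 and below it Tgtp1 were lowest in all 6 libraries, while Irgm2 was above Irgm1 and Ifi47 in L7 replicates 2 and 3 and below them in L7 replicate 1 and the 3 control libraries. In each group neighbouring means among these 3 genes differed by less than 1 SD. Averaged over the 6 libraries, Iigp1 had 214 FPKM, above 97.0% of the genes tested, and Tgtp1 had 28.1 FPKM, above 70.8%.

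**Figure D3:**
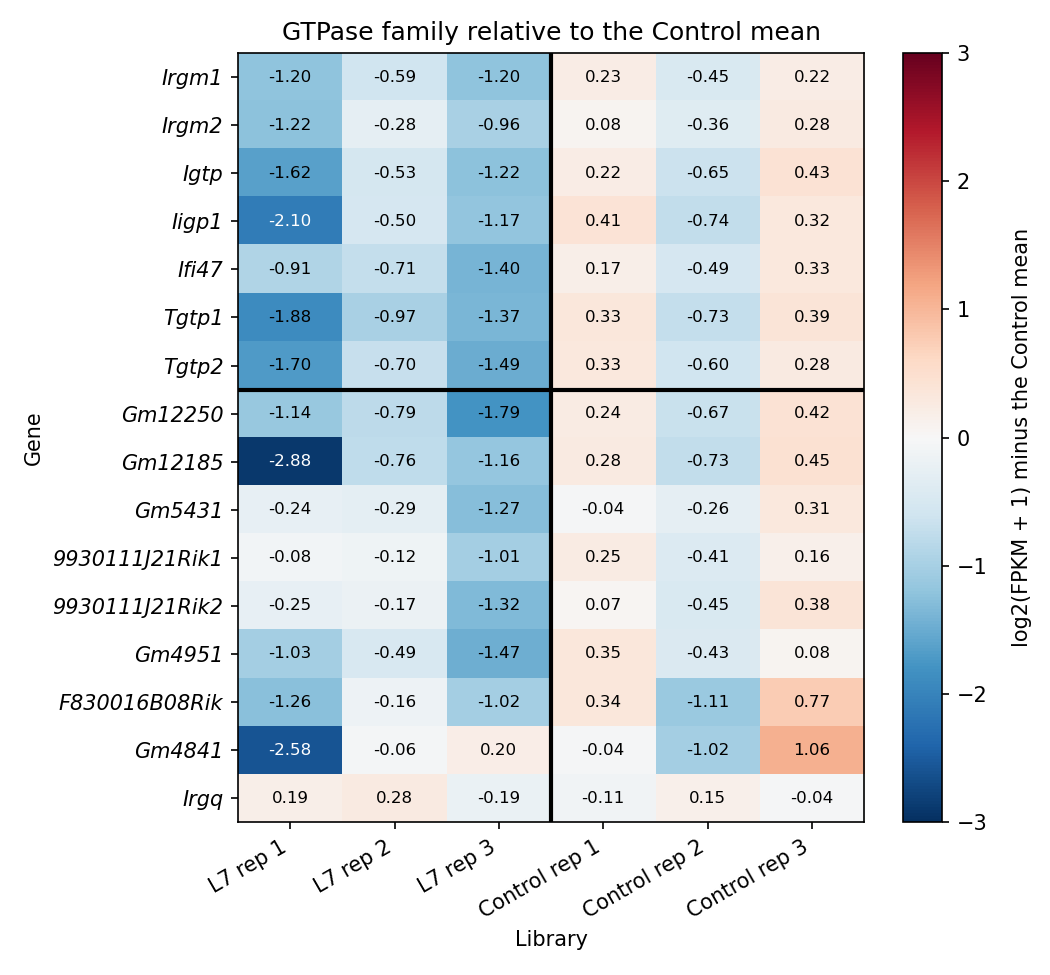
Each cell gives log2(FPKM + 1) of a gene in a library minus the mean of the control libraries, with the 7 members above the horizontal line and the other measured family genes below it, L7 libraries left of the vertical line and control libraries right of it. Blue is lower and red higher than the control mean; L7 replicate 1 is palest for Ifi47 (-0.91) and darkest for Iigp1 (-2.10) among the members.

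The differences were also read within the libraries with and without Y-linked reads. Among the 3 libraries with such reads (1 L7 and 2 control), the log2 differences of the members ran from -2.47 (Iigp1) to -1.16 (Ifi47), with a median of -1.95. Among the 3 without (2 L7 and 1 control), they ran from -0.56 (Ifi47) to -0.10 (Iigp1), with a median of -0.45. The medians of all genes tested were -0.02 in the libraries with such reads and -0.21 in those without. Each set has an arm of 1 library and the members vary together, so these are no replicates and no test was made. With the presence of Y-linked reads as a covariate the limma differences were -0.94 for Irgm1, -0.83 for Irgm2, -1.09 for Igtp, -1.29 for Iigp1, -0.86 for Ifi47, -1.35 for Tgtp1 and -1.24 for Tgtp2, each with an adjusted p of 0.871.

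Marker genes of the cells that respond to or make interferon gamma were read beside the members. Over all genes tested 70.8% were lower in L7 muscle on the mean, or 50.3% under median of ratios scaling, a share against which the counts of lower genes in the lists are read. Of 12 macrophage and monocyte markers 11 were lower in L7 muscle with a median log2 difference of -0.19, near the -0.15 of all genes, none at an unadjusted limma p under 0.05, and none was at 0. Their sums ran from 2680 to 5204 FPKM in L7 and from 3687 to 5231 FPKM in control muscle. L7 replicate 1, with the lowest sum of the GTPases, had the highest macrophage sum of its group. Of 15 T and natural killer cell markers 12 were lower with a median of -0.49. At an unadjusted limma p under 0.05 there were 5 (Gzma, Gzmb, Prf1, Klrb1c and Klrk1), against 4.25% of all genes called lower. These 5 are genes of cytotoxic and natural killer cells, whereas the T cell receptor and coreceptor genes had -0.35 (Cd3d), -0.10 (Cd3e), -0.19 (Cd3g), 0.26 (Cd4), 0.18 (Cd8a) and 0.34 (Cd8b1). The remaining markers of the list had -0.74 (Ncr1), -0.59 (Nkg7), -0.49 (Tbx21) and -0.44 (Eomes). The sums of the 15 markers ran from 106 to 175 FPKM in L7 and from 166 to 364 FPKM in control muscle, and none was at 0. Medians were -0.0032 for 7 endothelial genes, -0.05 for 7 fibro-adipogenic genes and 0.99 for 12 adult fibre genes. Neutrophil markers had a median of -0.77 over 5 genes tested, and of 4 B lymphocyte markers 1 was tested. The part of cell make-up in the levels of the GTPases was not tested.

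The gene of the ligand was read in the same libraries. Ifng, the gene of interferon gamma, was at 0.796, 2.13 and 1.55 FPKM in L7 muscle, against 4.77, 2.53 and 5.73 FPKM in control muscle. This rests on 14, 35 and 26 reads in L7 and 79, 39 and 112 reads in control libraries, and the groups did not overlap. Its log2 difference was -1.09 (SE 0.30), which this scale understates at such low levels, with a limma p of 0.00847 unadjusted and 0.58 adjusted. Over the 6 libraries Ifng had a Pearson correlation of 0.986 and a Spearman correlation of 1.0 with the mean of log2(FPKM + 1) over the members. On the summed FPKM of the members replicate 2 of the groups has the reverse order, with L7 the higher. Ifng was 1 of the 10 genes most like that mean, after Sytl3 (0.995), Ubd (0.992), Gimap4 (0.992), Serpina3f (0.990), Gm17018 (0.988), 9530082P21Rik (0.987) and Gbp4 (0.987), and before Tnfaip2 (0.986) and Tnfsf10 (0.986), by Pearson correlation of log2(FPKM + 1). Ubd, which encodes a ubiquitin-like protein, was at 1.99, 7.88 and 3.14 FPKM in L7 muscle, against 28.0, 7.14 and 22.0 FPKM in control muscle. Its replicate 2 libraries also stood next to each other, with L7 the higher.

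**Figure D4:**
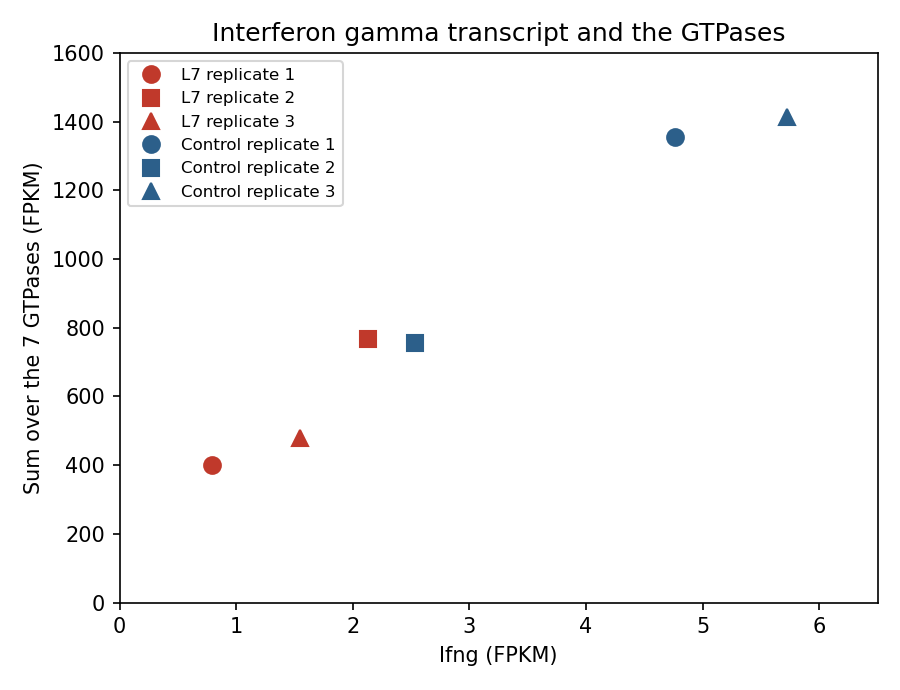
Summed level of the 7 GTPases (FPKM, vertical axis) against the level of Ifng (FPKM, horizontal axis), 1 point per library, L7 in red and control in blue. Control replicates 1 and 3 lie at upper right with Ifng at 4.77 and 5.73 FPKM, L7 replicates 1 and 3 at lower left, and replicate 2 of both groups side by side between them.

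Of 20 genes of interferon gamma signalling 20 were lower in L7 muscle on the mean, with a median log2 difference of -0.63. At an unadjusted limma p under 0.05 there were 10, against 4.25% of all genes, in a list chosen with earlier results of these data known. None passed the adjusted test. The receptor genes Ifngr1 and Ifngr2 had log2 differences of -0.08 and -0.24, and the kinase gene Jak1 one of -0.18. The kinase gene Jak2 had -0.69, and the transcription factor gene Irf1 -1.23 (SE 0.35, unadjusted limma p 0.0086). Irf1 was at 114, 163 and 74.6 FPKM in L7 muscle, against 312, 175 and 328 FPKM in control muscle, and the groups did not overlap. Socs1, the feedback inhibitor of the JAK kinases, had -1.18 and Batf2, a transcription factor gene induced by interferon gamma in mouse macrophages, -1.13. Ifngr1, Ifngr2 and Jak1 thus lay near the median of all genes, and Irf1, Socs1 and Batf2 within the range of the GTPases on this scale.

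Of 10 interferon ligand, receptor and inducer genes tested 9 were lower, with a median of -0.47. At an unadjusted limma p under 0.05 there were 3 (Il12b, Il27 and Il18rap), against 4.25% of all genes called lower. Il12b, a subunit of the cytokine interleukin 12 that induces interferon gamma, was at 0.711, 1.42 and 0.992 FPKM in L7 muscle, against 2.06, 1.95 and 3.18 FPKM in control muscle, with no overlap. Ifnb1, the gene of the type I interferon beta, averaged 0.354 ± 0.203 FPKM in L7 and 0.831 ± 0.333 FPKM in control muscle (SD, n = 3 each), below the level tested. Its groups did not overlap either, on 7, 8 and 2 reads in L7 and 19, 10 and 11 reads in control libraries. Ifna1 and Ifna2 were listed at 0 in all 6 libraries.

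Other immunity-related GTPases had a wider range than the members. Of 9 tested, 8 were lower with a median of -0.81. At an unadjusted limma p under 0.05 there were 3, against 4.25% of all genes called lower. For 3, all L7 libraries lay below all control libraries, against 13.7% of all genes. Gm12250, which RefSeq also names Irgb10 and which encodes an effector that attacks the vacuoles and membranes of bacteria in mouse cells, was at 37.1, 47.6 and 23.3 FPKM in L7 muscle, against 98.2, 51.9 and 112 FPKM in control muscle. Its log2 difference was -1.24 (SE 0.35), with a limma p of 0.00883 unadjusted and 0.58 adjusted. Gm12185, also named Irgb2b1, had -1.60 (SE 0.57), and its annotated span overlaps Tgtp1 on the same strand. Gm4951, also named Ifgga2 and like Iigp1 on chromosome 18, had -0.99 (SE 0.30). Gm4841, also named Ifgga3, did not follow the profile: it was at 13.3, 81.0 and 96.9 FPKM in L7 muscle, against 82.1, 41.1 and 178 FPKM in control muscle. Its groups overlapped widely, with a log2 difference of -0.81 and an SE of 0.80. Irgq, a family member with a degenerate GTP-binding motif, had 0.09 (SE 0.18), the only one of the 9 higher in L7 muscle on the mean. Irgc1 was below the level tested.

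The guanylate-binding proteins are a second family of interferon-induced GTPases that act on the same vacuoles. On the mean 11 of 11 genes were lower, with a median of -0.91. At an unadjusted limma p under 0.05 there were 8, against 4.25% of all genes called lower. The autophagy proteins that place these GTPases on vacuoles, with related genes, gave another picture: of 19 tested, 15 were lower, with a median of -0.19 beside -0.15 over all genes. Atg5, Atg7 and Atg16l1, of the conjugation system that effector loading needs in mouse cells, had -0.22, -0.18 and -0.25. Of this list 2 of 19 had an unadjusted limma p under 0.05, against 4.25% of all genes called lower. Trim21, a ubiquitin ligase gene, had -0.74 (SE 0.22), and Nos2, the gene of inducible nitric oxide synthase, had -1.40 (SE 0.51).

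The genes outside the family that neighbour the GTPase groups on chromosome 11 were read as well. Within 250 kb of the group of Irgm1, Tgtp1, Tgtp2 and Ifi47, 12 genes outside the family were tested, 8 were lower and their median was -0.18. Of these, 2 had an unadjusted limma p under 0.05, against 4.25% of all genes called lower. They were Olfr56 (-1.22), whose annotated span overlaps Tgtp1, Tgtp2 and Ifi47, and the proteasome activator gene Psme2b (-0.65). Within 250 kb of Igtp and Irgm2, 8 genes outside the family were tested, 5 were lower, the median was -0.03 and none had an unadjusted limma p under 0.05. No source used here gives the strand that was counted. Where an annotated neighbour overlaps on the opposite strand (Olfr56 with Tgtp1 and Tgtp2, and Gm12188 with Ifi47), the strand of the reads can therefore not be used to separate them.

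In the authors' deposited enrichment of Gene Ontology terms all 7 members stood in the term response to interferon-beta, with 18 of its 45 genes on the authors' list of changed genes, 0 higher and 18 lower. The corrected p of that term in the authors' deposited table was 1.0836e-19. Response to interferon-gamma held 24 such genes of 109, all lower, and only 3 of the members, with a corrected p of 3.6113e-20 in the authors' deposited table. The term symbiont-containing vacuole held 6 of 9 genes, 2 of them members, with a corrected p of 1.8282e-07, and autophagy 7 of 321 genes, 2 of them members, with a corrected p of 1, both from the authors' deposited table. The authors' list was made from the same libraries at an unadjusted p under 0.05, so these terms are not independent evidence on the members.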

How the data were processed

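RNA was measured in 6 tibialis anterior libraries after poly-T selection and a NEBNext Ultra library kit, per the labels' protocols. FPKM values per gene were deposited by the authors, and the lengths behind them ran from 1316 bases for Ifi47 to 3486 for Irgm2. The submitters' processing notes name the build mm10 and, in no stated role, HISAT2 2.0.4, TopHat2 2.0.12, Bowtie2 2.2.3 and DESeq 1.12.0. No source used here gives the counting program, its strand setting or the annotation. A second table by the authors holds, per the file headers, p-values, adjusted p-values and log2 fold changes beside a normalised mean signal of each group. Deposited Gene Ontology tables give gene counts and p-values per term.

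Ensembl identifiers were paired with symbols through a reference gene name table, for 51633 of 52369 genes, and gene coordinates came from GENCODE M21. FPKM steps and group means gave back reads per gene: all of the 152096 non-zero values lay within 0.05 of whole numbers, and these reads served for depth and for voom. Groups were compared with limma 3.58.1 in R 4.3.3, two-sided, on log2(FPKM + 1) and with its trend option. Genes under a mean of 1 FPKM were left out, p-values of the other 14788 were adjusted by Benjamini and Hochberg's method, and the threshold was 0.05. The fit was tested on simulated data with 200 changed genes and a spread set in advance, not taken from these libraries. At a 2-fold change 27.5% of the changed genes were recovered, with 2 false calls. At a 4-fold change it was 97.5%, with 17 false calls. Voom used TMM factors. Single genes had an exact permutation test over 20 arrangements. Named genes outside the members are up to 4 of each list by smallest unadjusted p. Any of the other GTPase and signalling lists, and the 10 genes most like the members, could be named too. Chosen after their values were seen were Atg5, Atg7, Atg16l1, Ifnb1, Ifna1, Ifna2 and the lymphocyte genes beyond the first 4. The neighbours Olfr56 and Psme2b and the genes sharing the motif pair were also chosen after their values were seen. A gene of the signalling list is counted in its totals but not reported here by itself. The members and lists were chosen with earlier results of these data known. Alternatives were another pseudocount, no filter, median of ratios scaling, array weights, voom, a replicate block, a covariate for Y-linked reads and leaving out each library. Tables and figures used Python 3.11.15, pandas 2.3.3, numpy 2.4.6, Biopython 1.88 and matplotlib 3.10.9.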

Additional observations from a re-analysis of the deposited data

How the results depend on the processing

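All 98 values of the 7 members under the 14 alternatives were negative, from -1.77 to -0.62 on the log2 scale, with adjusted p from 0.374 to 0.873. No member and no gene of the signalling or other GTPase lists passed the adjusted test under any of them. The number of genes past it over the whole table was 0, against 3 with array weights, 1 without L7 replicate 3 under median of ratios scaling, and 0 to 1 when each library was left out in turn, the 1 being without L7 replicate 1. The median of all genes was -0.15, against -0.0020 under median of ratios scaling, -0.0098 with voom and -0.0042 without L7 replicate 3 under median of ratios scaling. The number of members with separate groups ran from 4 to 7 when each library was left out, where 15.0% to 27.1% of all genes had L7 below control. The number at an unadjusted limma p under 0.05 ran from 4 to 7, where 1.39% to 8.1% of all genes were called lower. It was 4 without L7 replicate 3 under median of ratios scaling (3.12% of all genes). It was 5 with voom (3.29%) and 5 with median of ratios scaling alone (3.35%). The causes were not tested.

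Replicate numbers are in the labels, but same-numbered libraries had correlations of their deviations of 0.322, -0.0652 and 0.0871, so the numbers were not taken to pair them. With a replicate block 6 members had an unadjusted limma p under 0.05, where 5.32% of all genes were called lower. The median of the members was -1.13, and 0 genes passed the adjusted test. With 3 libraries a group, no exact p under 0.1 can be had. Every member had 290 reads or more in each library, whereas Ifng had 14 to 112.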

Other observations

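Both cores, with starts within 15 bases as in the promoters of Igtp, Irgm2, Tgtp1 and Tgtp2, also occurred in 31 genes outside the members. The search left out chromosome 18. This set was chosen after the values of the members were seen. Of the 15 tested, 14 were lower in L7 muscle on the mean, with a median log2 difference of -0.46 beside -0.15 over all genes tested, of which 10476 of 14788 were lower. At an unadjusted limma p under 0.05 there were 5 of the 15 (Gm12185, Gm12250, Parp11, Ifitm3 and Bst2), against 4.25% of all genes called lower, and none passed the adjusted test. Gm12185 and Gm12250, the most lowered of the 15, are themselves immunity-related GTPases. The annotated span of Gm12185 overlaps that of Tgtp1 on the same strand, and whether their pair of cores is the same site was not checked. For 8 of the 15, all L7 libraries lay below all control libraries, against 13.7% of all genes. Parp11, which encodes a mono-ADP-ribosyltransferase, averaged 29.8 FPKM in L7 and 53.9 FPKM in control muscle, a log2 difference of -0.83. Ifitm3, an antiviral membrane protein gene, averaged 827 FPKM in L7 and 1240 FPKM in control muscle, a difference of -0.60. Bst2, the gene of tetherin, which holds budding viruses at the cell surface, averaged 836 FPKM in L7 and 1150 FPKM in control muscle, a difference of -0.46. Serpinb6a, a protease inhibitor gene with the same pair of cores, was the exception at 263 FPKM in L7 and 249 FPKM in control muscle, a difference of 0.08.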
